A study of Danio rerio with 4 samples.

Results

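Matrix metalloproteinases (MMPs), ADAMTS proteases, their inhibitors and lysyl oxidases were followed in endothelial cells sorted from zebrafish. Members were the genes whose symbol begins with MMP, TIMP or ADAMTS, or names lox or a lox-like gene, without regard to case. This rule, which used no measured value, found 59 of the 31951 genes in the deposited expression table. They comprised 12 MMPs held at the cell membrane, 11 secreted MMPs, 19 ADAMTS proteases, 4 ADAMTS-like proteins, 4 tissue inhibitors of metalloproteinases (TIMPs) and 9 lysyl oxidases.

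RNA-seq libraries had been made from kdrl:cxcr1 fish, which carry both kdrl:mcherry and kdrl:cxcr1, and from wild-type fish, which carry kdrl:mcherry alone. The kdrl promoter is active in endothelium, so kdrl:cxcr1 places the chemokine receptor gene cxcr1 there and kdrl:mcherry marks the cells red for sorting. Each of 2 independent clutches gave 1 library per genotype, 4 libraries in all. The fish were embryos; their age, how many were pooled and how many founders the line had are not stated in the labels, which list no treatment. The series asks how the receptor alters the vascular niche of blood stem cells.

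MMPs are zinc enzymes that cut collagens and other matrix proteins. Many secreted MMPs are released in latent form, whereas membrane MMPs act at the cell surface. In mammals MMP14 at the surface binds TIMP2, and the pair activates secreted MMP2. ADAMTS enzymes cut proteoglycans or trim procollagens, ADAMTS-like proteins resemble them but have no protease domain, and lysyl oxidases cross-link collagen and elastin. Endothelial cells use these genes when they sprout and when they build or remodel the basement membrane. Roles named below are known mainly from mammals.

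The measure was FPKM, a count of sequenced fragments divided by transcript length and by library size, and so a level per length that allows genes to be set side by side. Summed FPKM per library ranged from 986557 to 1280970. Genes listed at 0 made up 31.9% of the table in both clutch 1 libraries, and 43.5% and 42.0% in kdrl:cxcr1 and wild-type clutch 2. Among members, 4 and 15 were listed at 0 in kdrl:cxcr1 clutches 1 and 2, against 5 and 10 in wild-type. A listed 0 can be a failed estimate and is not read as absence. The endothelial genes kdrl and cdh5 were present in all libraries, at 140 and 157 FPKM for kdrl in kdrl:cxcr1 cells and 128 and 274 FPKM in wild-type, and at 92.5 to 178 FPKM for cdh5. The row cxcr1 read 12.8 and 0 FPKM in kdrl:cxcr1 cells, compared with 8.14 and 0 FPKM in wild-type cells, so it did not separate the genotypes, and each direction below is between libraries as labelled.

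Secreted MMPs gave the most RNA of the 6 classes in every library. Their summed level was 284 and 250 FPKM in kdrl:cxcr1 clutches 1 and 2, against 403 and 168 FPKM in wild-type clutches 1 and 2. Membrane MMPs summed to 128 and 145 FPKM in kdrl:cxcr1 cells, compared with 159 and 163 FPKM in wild-type cells. Lysyl oxidases followed at 110 and 139 FPKM in kdrl:cxcr1 cells, compared with 129 and 148 FPKM in wild-type cells. The margin of secreted over membrane MMPs was wide in 3 libraries and nearly closed in wild-type clutch 2, with ratios of 2.22 and 1.72 in kdrl:cxcr1 and 2.54 and 1.03 in wild-type. TIMPs summed to 85.9 and 92.1 FPKM in kdrl:cxcr1 cells, compared with 117 and 84.7 FPKM in wild-type cells. ADAMTS proteases summed to 87.2 and 86.6 FPKM in kdrl:cxcr1 cells, compared with 64.7 and 68.2 FPKM in wild-type cells. ADAMTS-like proteins never exceeded 7.31 FPKM together.

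**Figure D1:**
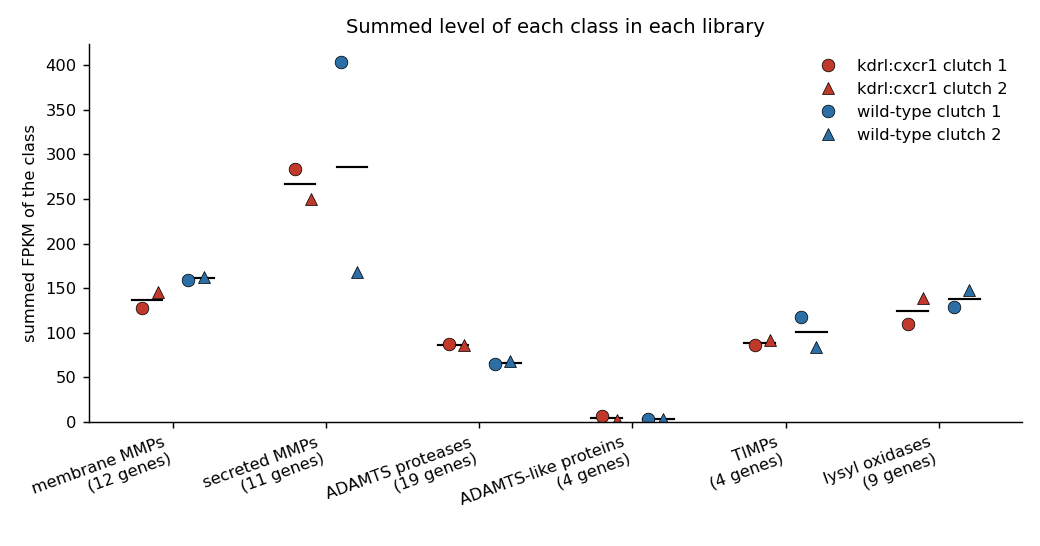
Summed FPKM of all members of each class (vertical axis) in each of the 4 libraries, with kdrl:cxcr1 left of wild-type in each class, circles for clutch 1, triangles for clutch 2 and a short line at the mean of each genotype. The secreted MMP sums of the wild-type libraries, 403 and 168 FPKM, enclose those of kdrl:cxcr1, while the membrane MMP and ADAMTS sums of the genotypes do not overlap.

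The ratio of pooled MMP to TIMP RNA, over the rows found by symbol, varied less between libraries than either sum did, though the 2 MMP classes taken apart did not keep steady. The TIMP sum covers TIMP2 and TIMP4 rows only, since no other TIMP symbol was found. The ratio of summed MMP to summed TIMP FPKM was 4.79 and 4.29 in kdrl:cxcr1, against 4.79 and 3.91 in wild-type. Secreted MMPs alone over TIMPs gave 3.30 and 2.715 in kdrl:cxcr1, against 3.44 and 1.985 in wild-type. Membrane MMPs alone over TIMPs gave 1.49 and 1.58 in kdrl:cxcr1, against 1.35 and 1.925 in wild-type. These ratios put the libraries in opposite orders, so they offset each other in the pooled ratio. Over the same libraries the MMP sum was 412 and 395 FPKM in kdrl:cxcr1 cells, compared with 562 and 331 FPKM in wild-type cells. The highest MMP and TIMP sums were thus both in wild-type clutch 1 and the lowest of both in wild-type clutch 2. These are sums over libraries of unknown depth, so no counting error can be given, and no test was made of them.

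The classes differed in how far a few genes carried the sum. The leading 3 of the 11 secreted MMPs made up 97.0% and 97.1% of the class sum in kdrl:cxcr1, and 96.2% and 89.9% in wild-type. The 2 TIMP2 rows made up nearly all TIMP signal. By contrast the leading 3 ADAMTS proteases gave 46.0% to 54.6% of their class in any library. Of the 59 members, 40 had at least 1 FPKM in at least 2 libraries and were tested. The 19 others were 3 membrane MMPs, 5 secreted MMPs, 5 ADAMTS proteases, 3 ADAMTS-like proteins, 2 TIMPs and 1 lysyl oxidase, and they include MMP19 and mmp20a, listed at 0 in all 4 libraries. Levels of the 40 tested genes ran from 1.15 FPKM (ADAMTS16) to 110 FPKM (mmp13a) as means over the 4 libraries.

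**Figure D2:**
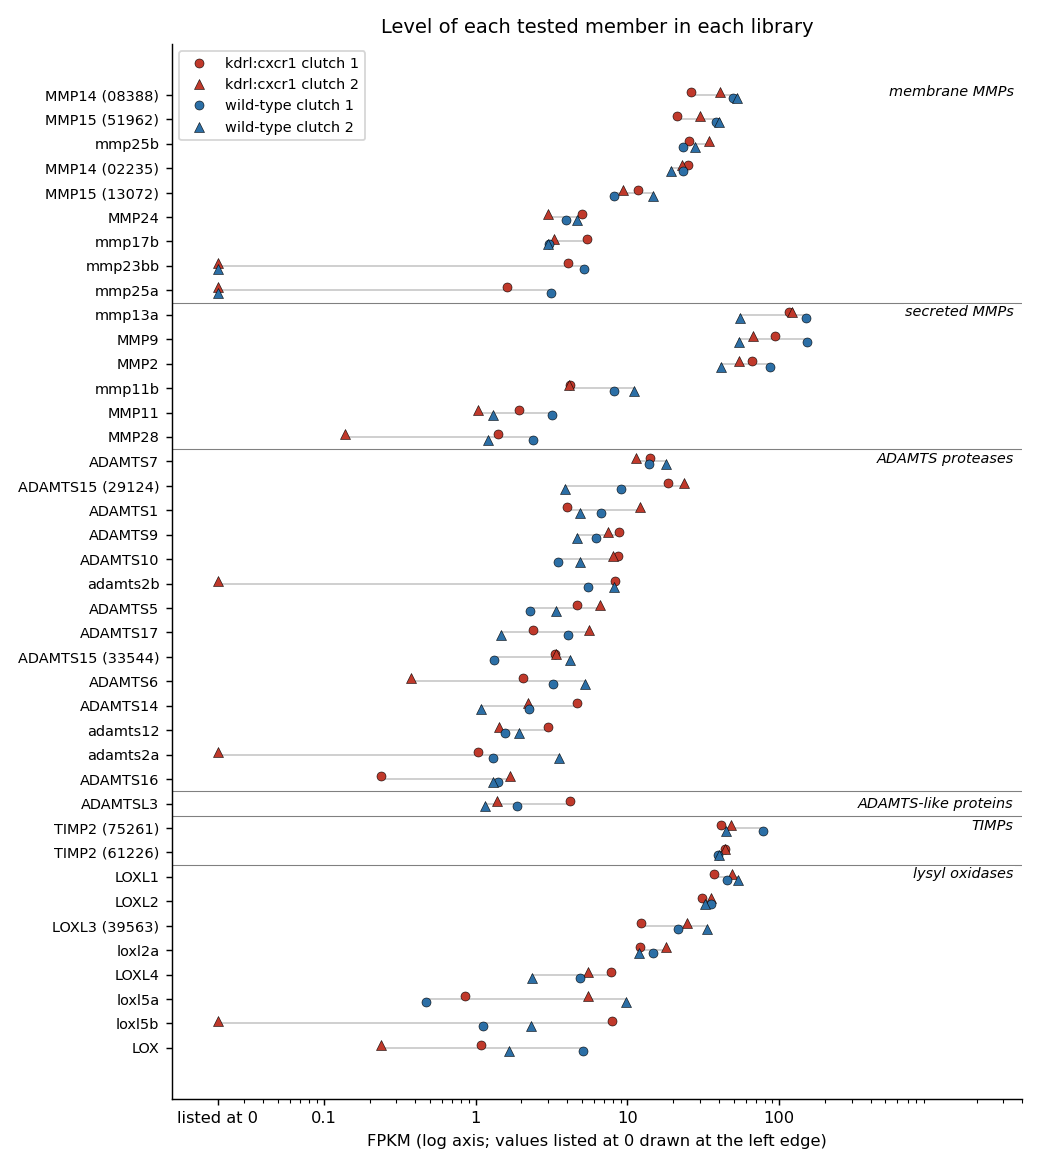
FPKM on a log axis for each of the 40 tested members, ordered by mean level within its class, in kdrl:cxcr1 (red) and wild-type (blue) libraries of clutch 1 (circles) and clutch 2 (triangles); numbers in brackets are the last digits of the Ensembl identifier where rows share a symbol. The TIMP2 row ENSDARG00000061226 and LOXL2 have the narrowest spread, and mmp23bb and mmp25a are listed at 0 in both clutch 2 libraries.

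The genotypes were compared with limma's moderated test on log2(FPKM + 1), fitted over all 17723 genes that passed the same filter. A positive log2 fold change means higher in kdrl:cxcr1, and the change of low genes is understated on this scale. No member passed the test, with a lowest Benjamini-Hochberg adjusted p of 0.699, where 0.0113% of all genes tested (2 genes) passed. At an unadjusted p under 0.05, limma gave 1 member (2.50%), against 6.80% of all genes. The kdrl:cxcr1 values lay entirely above the wild-type values for 7 members (17.5%), where 26.0% of all genes did so, and entirely below for 6 members (15.0%), where 13.6% did so. The share of members was thus below that of all genes on the higher side and close to it on the lower side. With 2 libraries per genotype the smallest two-sided p of an exact permutation test is 0.333, so the limma p-values rest on a spread pooled over genes. In sorted bulk RNA, fewer cells of a type and less RNA per cell cannot be told apart.

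Among membrane MMPs, the 2 most abundant genes were lower in kdrl:cxcr1 in both clutches, and no other tested membrane MMP was lower in both. MMP14 (ENSDARG00000008388), a collagenase of the cell surface that drives endothelial invasion, read 26.3 and 41.0 FPKM in kdrl:cxcr1 clutches 1 and 2, against 49.7 and 52.3 FPKM in wild-type clutches 1 and 2. The groups did not overlap, and the lowest value was in kdrl:cxcr1 clutch 1. Its log2 fold change was -0.62 (SE 0.37), short of the threshold by limma (adjusted p = 0.721), and -0.31 without kdrl:cxcr1 clutch 1. MMP15 (ENSDARG00000051962), a closely related membrane MMP, read 21.2 and 29.9 FPKM in kdrl:cxcr1 cells, compared with 38.2 and 40.2 FPKM in wild-type cells. The 4 libraries stood in the same order as for this MMP14 row, and the groups again did not overlap (log2 fold change -0.62, SE 0.37, limma adjusted p = 0.721, and -0.38 without kdrl:cxcr1 clutch 1).

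Other membrane MMPs gave mixed signs. mmp25b, whose mammalian counterpart is tethered by a lipid anchor and known from neutrophils, read 25.3 and 34.4 FPKM in kdrl:cxcr1 cells, compared with 23.1 and 27.9 FPKM in wild-type cells. Its groups overlapped, with a log2 fold change of 0.21 (SE 0.38). The second MMP14 row (ENSDARG00000002235) read 25.0 and 22.8 FPKM in kdrl:cxcr1 cells, compared with 23.2 and 19.5 FPKM in wild-type cells, above wild-type within each clutch. The second MMP15 row (ENSDARG00000013072) read 11.7 and 9.32 FPKM in kdrl:cxcr1 cells, compared with 8.21 and 14.8 FPKM in wild-type cells, and its sign turned between clutches, as did that of MMP24. The lipid-anchored mmp17b was low, at 5.40 and 3.31 FPKM in kdrl:cxcr1 cells, compared with 3.05 and 2.98 FPKM in wild-type cells, without overlap (log2 fold change 0.39, SE 0.59). These rows, other than mmp25b, were given after their values were seen. Without MMP14 (ENSDARG00000008388) and MMP15 (ENSDARG00000051962), a check added after the values were seen, the membrane sum was 80.5 and 74.3 FPKM in kdrl:cxcr1 cells, compared with 70.8 and 70.5 FPKM in wild-type cells. The other 10 rows together were thus higher in kdrl:cxcr1 as deposited. Their direction turned after median-of-ratios scaling, which brings the median gene of the libraries together, to 74.8 and 68.2 FPKM in kdrl:cxcr1 cells, compared with 75.5 and 77.6 FPKM in wild-type cells. With that scaling the whole class summed to 119 and 133 FPKM in kdrl:cxcr1 cells, compared with 169 and 179 FPKM in wild-type cells. Of the 9 tested membrane MMPs, 3 lay above and 6 below the median gene, whose log2 fold change among all tested was 0.16 by genotype and -0.028 after that scaling.

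Secreted MMPs showed no genotype difference that both clutches shared at the top of the class. mmp13a, a collagenase gene of the zebrafish, was the most abundant member at 115 and 121 FPKM in kdrl:cxcr1 cells, compared with 150 and 54.9 FPKM in wild-type cells, above 96.3% of all genes tested by mean level. MMP9, a gelatinase that cuts basement membrane collagen, read 93.7 and 67.5 FPKM in kdrl:cxcr1 cells, compared with 152 and 54.5 FPKM in wild-type cells. MMP2, the gelatinase activated by MMP14, read 66.2 and 54.6 FPKM in kdrl:cxcr1 cells, compared with 87.0 and 41.6 FPKM in wild-type cells. In all 3 genes the wild-type libraries held both the highest and the lowest value, and kdrl:cxcr1 lay between them. The log2 fold changes were 0.37 (SE 0.52) for mmp13a, -0.19 (SE 0.55) for MMP9 and -0.00305 (SE 0.45) for MMP2, none past the limma threshold (adjusted p = 0.887, 0.957 and 0.999). Leaving out wild-type clutch 1 gave 0.54 for MMP9 and 0.52 for MMP2, and leaving out wild-type clutch 2 gave -0.92 and -0.53.

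**Figure D3:**
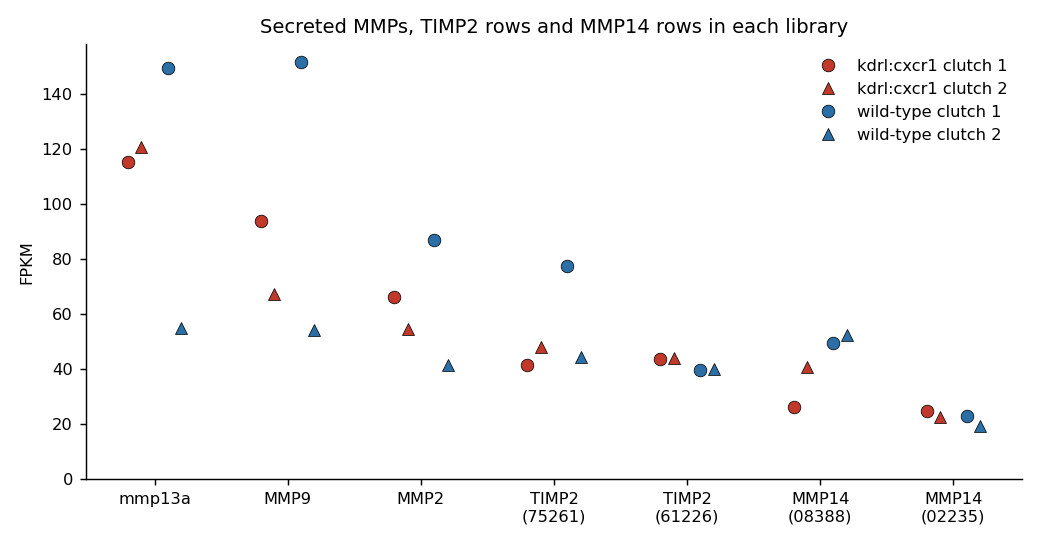
FPKM of the 3 leading secreted MMPs, the 2 TIMP2 rows and the 2 MMP14 rows in each library, kdrl:cxcr1 (red) left of wild-type (blue), circles for clutch 1 and triangles for clutch 2. For mmp13a, MMP9 and MMP2 the wild-type libraries are highest and lowest, while the TIMP2 row ENSDARG00000061226 stays between 39.8 and 44.1 FPKM.

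The other 3 tested secreted MMPs, mmp11b, MMP11 and MMP28, read below wild-type within each clutch, and none passed. mmp11b, of the stromelysin-3 type, is named here after its values were seen. It read 4.21 and 4.12 FPKM in kdrl:cxcr1 cells, compared with 8.15 and 10.98 FPKM in wild-type cells, and its groups did not overlap (log2 fold change -1.02, SE 0.51, limma adjusted p = 0.699). Groups overlapped for MMP11 and MMP28. MMP28, known from skin and other epithelia in mammals, ranged from 0.137 FPKM in kdrl:cxcr1 clutch 2 to 2.38 FPKM in wild-type clutch 1. The 5 not tested did not share one order, and mmp30 read 0.588 and 1.98 FPKM in kdrl:cxcr1 cells, compared with 0.801 and 0 FPKM in wild-type cells. Of the 6 tested secreted MMPs, 1 lay above and 5 below the median gene.

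Proteases of the ADAMTS family held the 1 member with an unadjusted p under 0.05. ADAMTS15 (ENSDARG00000029124), which cuts the proteoglycan versican, read 18.5 and 23.7 FPKM in kdrl:cxcr1 cells, compared with 9.10 and 3.90 FPKM in wild-type cells. Both kdrl:cxcr1 libraries lay above both wild-type libraries, in means of 21.1 ± 3.65 and 6.50 ± 3.68 FPKM (SD, n = 2 each). The log2 fold change was 1.64 (SE 0.53), with a limma p of 0.0230 before and 0.699 after adjustment, so the difference did not pass. It was 0.95 in clutch 1 and 2.33 in clutch 2, and 1.12 to 2.16 with 1 library left out, lowest without wild-type clutch 2.

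No other ADAMTS gene had an unadjusted p under 0.05, and the other top members overlapped between genotypes. ADAMTS7, which cuts cartilage oligomeric matrix protein, read 14.1 and 11.4 FPKM in kdrl:cxcr1 cells, compared with 14.0 and 18.1 FPKM in wild-type cells. ADAMTS1, a versican-cutting gene linked to the control of vessel growth, read 3.98 and 12.1 FPKM in kdrl:cxcr1 cells, compared with 6.74 and 4.85 FPKM in wild-type cells. Its sign turned between the clutches, with log2 ratios of -0.64 in clutch 1 and 1.17 in clutch 2. Higher in both kdrl:cxcr1 libraries than in both wild-type libraries were also ADAMTS9, ADAMTS10 and ADAMTS5, named after their values were seen. ADAMTS10, a partner of fibrillin microfibrils, had the largest log2 fold change of these, at 8.67 and 8.02 FPKM in kdrl:cxcr1 cells, compared with 3.49 and 4.90 FPKM in wild-type cells (log2 fold change 0.86, SE 0.52, limma adjusted p = 0.721). ADAMTS5, an aggrecan-cutting enzyme of cartilage, read 4.63 and 6.58 FPKM in kdrl:cxcr1 cells, compared with 2.27 and 3.37 FPKM in wild-type cells. ADAMTS9, which cuts versican, read 8.78 and 7.48 FPKM in kdrl:cxcr1 cells, compared with 6.22 and 4.66 FPKM in wild-type cells. Neither passed, at log2 fold changes of 0.79 (SE 0.59) and 0.51 (SE 0.51). ADAMTS14, which trims procollagen, was above wild-type within each clutch, and its groups overlapped. ADAMTS17, adamts12, ADAMTS16 and the second ADAMTS15 row (ENSDARG00000033544) had opposite signs in the clutches.

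Other ADAMTS genes had the opposite order. Named likewise after their values were seen, ADAMTS6 read 2.05 and 0.376 FPKM in kdrl:cxcr1 cells, compared with 3.21 and 5.23 FPKM in wild-type cells, and the procollagen-trimming gene adamts2a read 1.04 and 0 FPKM in kdrl:cxcr1 cells, compared with 1.30 and 3.54 FPKM in wild-type cells. Its paralog adamts2b read 8.29 FPKM in kdrl:cxcr1 clutch 1 and was listed at 0 in clutch 2, against 5.53 and 8.11 FPKM in wild-type. Both adamts2 rows were therefore listed at 0 in the same library. Of the 14 tested ADAMTS proteases 9 lay above and 5 below the median gene. Groups did not overlap for 4 of the 14 on the higher side and 2 on the lower side. These shares are close to those of all genes tested, 26.0% higher and 13.6% lower.

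The class sum of ADAMTS proteases was higher in kdrl:cxcr1 without overlap, and the overlap returned when 1 gene was left out. Without ADAMTS15 (ENSDARG00000029124), a check added after the values were seen, the sum was 68.6 and 62.9 FPKM in kdrl:cxcr1 cells, compared with 55.6 and 64.3 FPKM in wild-type cells, and the groups overlapped. Median-of-ratios scaling of that remainder gave 63.8 and 57.7 FPKM in kdrl:cxcr1 cells, compared with 59.3 and 70.7 FPKM in wild-type cells. With all 19 genes and median-of-ratios scaling it was 81.0 and 79.4 FPKM in kdrl:cxcr1 cells, compared with 69.0 and 75.0 FPKM in wild-type cells. The ADAMTS-like proteins were low throughout. ADAMTSL3, the 1 tested, read 4.19 and 1.38 FPKM in kdrl:cxcr1 cells, compared with 1.89 and 1.16 FPKM in wild-type cells, with overlapping groups (log2 fold change 0.50, SE 0.72, and 0.23 with a pseudocount of 5). ADAMTSL2, which binds fibrillin, read 0.970 and 0.623 FPKM in kdrl:cxcr1 cells, compared with 0.316 and 2.19 FPKM in wild-type cells, and adamtsl5 read 1.47 and 0.793 FPKM, against 0.861 and 0.576 FPKM.

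Both TIMP2 rows were abundant, and they differed in how steady they were. TIMP2 (ENSDARG00000061226) read 43.9 and 44.1 FPKM in kdrl:cxcr1 cells, compared with 39.8 and 40.2 FPKM in wild-type cells. This was the narrowest range of any member without a 0, the highest value being 1.11 times the lowest. The groups did not overlap, yet the log2 fold change of 0.13 (SE 0.32) had a limma adjusted p of 0.949 and turned to -0.09 after median-of-ratios scaling. TIMP2 (ENSDARG00000075261) read 41.6 and 48.0 FPKM in kdrl:cxcr1 cells, compared with 77.6 and 44.4 FPKM in wild-type cells. Its highest value was in wild-type clutch 1, as for MMP9, mmp13a and MMP2, and the log2 fold change of -0.39 (SE 0.40) became 0.01 without that library. The 2 TIMP4 rows were at or near 0, with 0.387 FPKM the highest value, for ENSDARG00000102617 in kdrl:cxcr1 clutch 1.

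Lysyl oxidases were led by 3 lox-like genes, none of which passed the test. LOXL1, which cross-links elastin, read 37.1 and 48.7 FPKM in kdrl:cxcr1 cells, compared with 45.0 and 53.9 FPKM in wild-type cells, a log2 fold change of -0.21 (SE 0.35). LOXL2, known to act on collagen IV of endothelial basement membrane, read 30.8 and 35.6 FPKM in kdrl:cxcr1 cells, compared with 35.8 and 32.5 FPKM in wild-type cells. Its highest value was 1.16 times its lowest. LOXL3 (ENSDARG00000039563) read 12.2 and 24.8 FPKM in kdrl:cxcr1 cells, compared with 21.6 and 33.3 FPKM in wild-type cells, below wild-type within each clutch but with overlapping groups (log2 fold change -0.59, SE 0.49).

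The founding member of the family, LOX, was low and was the 1 member with a log2 ratio of at least 1 in size and of the same sign in both clutches. It read 1.09 and 0.238 FPKM in kdrl:cxcr1 cells, compared with 5.10 and 1.65 FPKM in wild-type cells. Both kdrl:cxcr1 values lay below both wild-type values. The log2 ratio was -1.55 in clutch 1 and -1.10 in clutch 2, and the log2 fold change of -1.32 (SE 0.77) did not pass (limma adjusted p = 0.719) and was -0.72 without wild-type clutch 1. With a pseudocount of 0.1 it was -2.25 and with 5 it was -0.54, so the size of the ratios rests on the pseudocount of 1. Among all genes tested, 2.79% were lower by that much in both clutches, and 2.50% of the tested members. No member was higher by that much in both clutches, where 4.50% of all genes were. LOXL4 ran the other way without overlap, at 7.84 and 5.47 FPKM in kdrl:cxcr1 cells, compared with 4.86 and 2.34 FPKM in wild-type cells, and was named after its values were seen. loxl5b read 7.88 FPKM in kdrl:cxcr1 clutch 1 and 0 in clutch 2, against 1.12 and 2.32 FPKM in wild-type, the widest turn of sign between clutches in the class. Of the 8 tested lysyl oxidases 2 lay above and 6 below the median gene.

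The clutches often disagreed on the sign of the genotype ratio. In 17 of 40 tested members (42.5%) the ratio had opposite signs in the 2 clutches, where 40.0% of all genes tested had. In class medians relative to the median gene, membrane MMPs stood at -0.27, secreted MMPs at -0.42, TIMPs at -0.28 and lysyl oxidases at -0.28, and ADAMTS proteases at 0.14. For secreted MMPs clutch 1 gave -0.64 and clutch 2 gave -0.09, and TIMPs gave -0.51 and -0.035. Membrane MMPs gave -0.037 in clutch 1 and -0.15 in clutch 2, lysyl oxidases -0.38 and -0.43, and ADAMTS proteases 0.33 and 0.25. The median of all 40 was -0.21. A median over both clutches is taken over gene averages, so it need not lie between the clutch values. These medians describe the members that passed the filter on low values and carry no test.

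**Figure D4:**
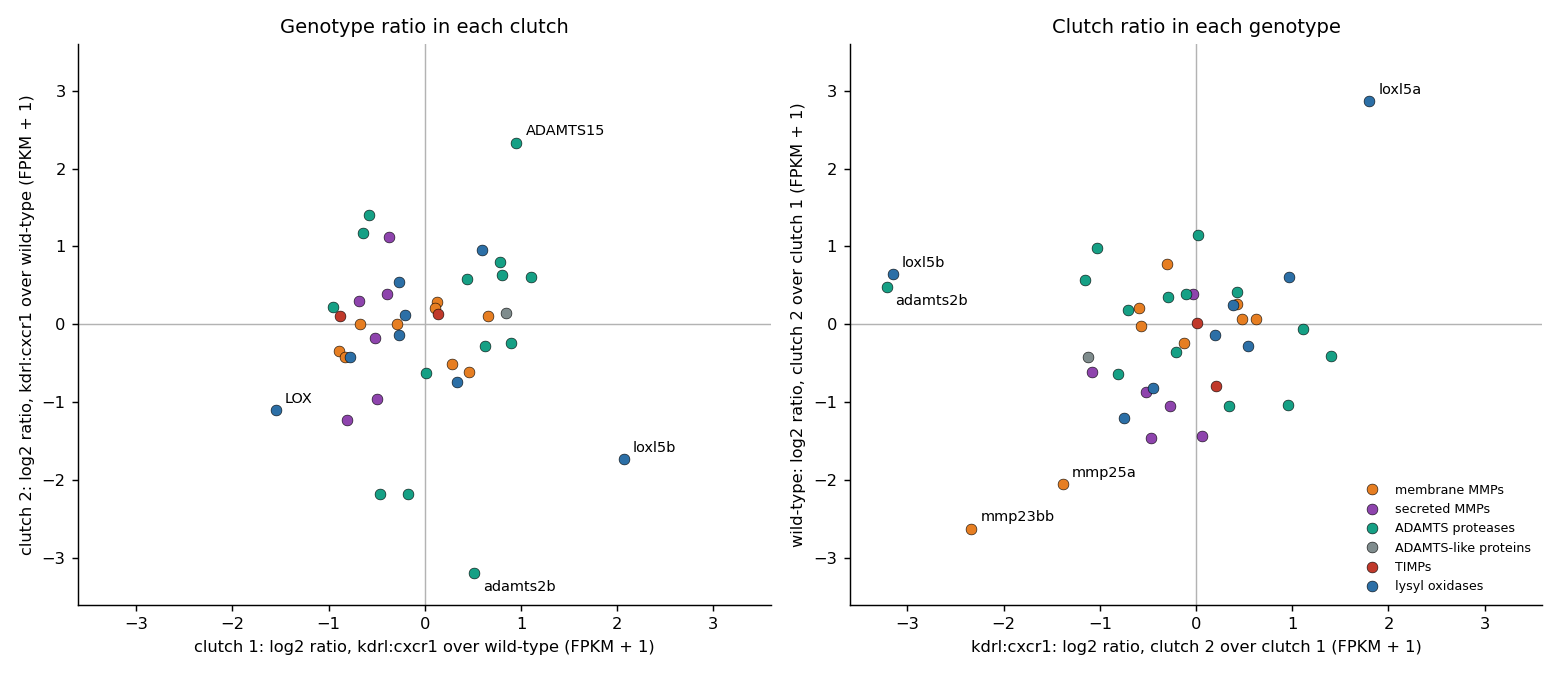
Log2 ratios of FPKM + 1 for the 40 tested members, each point a gene coloured by class. The left panel sets the ratio of kdrl:cxcr1 over wild-type in clutch 1 (horizontal) against clutch 2 (vertical), and the right panel sets the ratio of clutch 2 over clutch 1 in kdrl:cxcr1 (horizontal) against wild-type (vertical). ADAMTS15 lies high and LOX low in both clutches, adamts2b and loxl5b turn sign, and mmp23bb, mmp25a and loxl5a differ by clutch in both genotypes.

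Between clutches, 4 of the 6 tested secreted MMPs, MMP9, MMP2, MMP11 and MMP28, were lower in clutch 2 without overlap, short of the threshold, and mmp13a and mmp11b were not. Clutch 2 was compared with clutch 1 by the same test, with the genotypes as replicates, and a positive value means higher in clutch 2. No member passed (lowest limma adjusted p = 0.383), where 0.0169% of all genes (3 genes) did, and 3 members (7.50%) had an unadjusted p under 0.05, against 9.20% of all genes. Values of clutch 2 lay wholly above those of clutch 1 for 5 members (12.5%), where 15.5% of all genes did so, and wholly below for 9 members (22.5%), where 20.4% did so. These counts include loxl5a (above) and mmp23bb and mmp25a (below). Each of them passed the filter through 1 clutch alone, which fixed its place in advance. MMP9 averaged 61.0 FPKM in clutch 2 and 123 FPKM in clutch 1, without overlap (log2 fold change -0.96, SE 0.38, limma adjusted p = 0.549). MMP2 averaged 48.1 FPKM in clutch 2 and 76.6 FPKM in clutch 1, also without overlap (-0.66, SE 0.35, adjusted p = 0.727). The step was larger in wild-type, where the log2 ratio of clutch 2 over clutch 1 was -1.46 for MMP9 and -1.05 for MMP2, against -0.47 and -0.27 in kdrl:cxcr1. mmp13a overlapped between clutches, with log2 ratios of 0.065 in kdrl:cxcr1 and -1.43 in wild-type, and mmp11b had a log2 fold change of 0.18. With 1 library per genotype and clutch, a difference between those steps cannot be tested. Marker lists also differed between clutches. Relative to the median gene, cartilage and notochord genes stood at -1.02 (18 of 21 below it) and epidermal genes at -0.61 (18 of 23 below). Neutrophil and macrophage genes stood at 0.63 (13 of 20 above) and endothelial genes at 0.65 (22 of 24 above). The cartilage and notochord median was -0.24 in kdrl:cxcr1 and -1.15 in wild-type, and the endothelial median 0.41 and 0.79. The epidermal median turned sign, at -1.41 in kdrl:cxcr1 and 0.27 in wild-type. The neutrophil and macrophage median was 0.94 in kdrl:cxcr1 and 0.04 in wild-type. The part of these in the clutch values of the MMPs was not tested.

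The 3 members with an unadjusted p under 0.05 by clutch were all low genes that passed the filter through 1 clutch alone, so they had to differ. mmp23bb, a small membrane MMP, was listed at 0 in both clutch 2 libraries, against 4.04 and 5.15 FPKM in kdrl:cxcr1 and wild-type clutch 1 (limma adjusted p = 0.383). mmp25a was likewise listed at 0 in both clutch 2 libraries, against 1.61 and 3.15 FPKM in clutch 1 (adjusted p = 0.408). loxl5a, a lox-like gene, read 5.46 and 9.75 FPKM in clutch 2, against 0.855 and 0.473 FPKM in clutch 1 (log2 fold change 2.33, SE 0.60, adjusted p = 0.408). That value was 3.32 with a pseudocount of 0.1 and 1.13 with 5. In log2 ratios of at least 1 in both genotypes, loxl5a was the 1 member higher in clutch 2, where 2.75% of all genes were, and mmp23bb and mmp25a were the 2 lower, where 7.53% were. LOXL1 and LOXL3 were also higher in clutch 2 without overlap, by log2 fold changes of 0.32 (SE 0.33) and 0.78 (SE 0.46). Relative to the median gene, the class median was -0.63 for secreted MMPs, -0.12 for membrane MMPs, -0.08 for TIMPs, 0.03 for ADAMTS proteases and 0.14 for lysyl oxidases. The membrane median includes mmp23bb and mmp25a, and the lysyl oxidase median includes loxl5a.

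Paralogs were usually unequal. The members form 15 pairs of rows that share a symbol stem, once a last a or b after a digit is dropped. In 8 of these pairs the same row was higher in all 4 libraries. The rule leaves out mmp23bb and MMP23B, whose order changed with the clutch. MMP23B read 0.523 and 0.769 FPKM in kdrl:cxcr1 clutches 1 and 2, and 0.722 and 0.638 FPKM in wild-type. The gap was widest for mmp13a against mmp13b (110 and 0.261 FPKM as means over the 4 libraries). It was also wide for LOXL3 (23.0 and 0.225 FPKM) and for mmp25b against mmp25a (27.7 and 1.19 FPKM). The MMP14 pair kept its order by a smaller margin, 42.4 and 22.6 FPKM, and nearly met in kdrl:cxcr1 clutch 1. The ADAMTS15 pair changed order in 1 library, wild-type clutch 2, where the row ENSDARG00000033544 read 4.17 FPKM and ENSDARG00000029124 read 3.90 FPKM. Reads shared between near-identical copies or overlapping genes could be split unevenly, since the counting rule is not known.

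Genes around these enzymes gave a wider view of the pathway. The list of MMP activators, other inhibitors and sheddases had 24 tested genes, of which none passed limma's test in either direction, 11 lay above and 13 below the median gene, and the list median was -0.05 relative to it. The sheddase gene ADAM9 led it by p, at 13.4 and 30.7 FPKM in kdrl:cxcr1 cells, compared with 8.31 and 6.81 FPKM in wild-type cells (log2 fold change 1.33, limma adjusted p = 0.699). Next came the sheddase ADAM17 (ENSDARG00000093093) and the proteoglycan gene spock2, with log2 fold changes of 1.03 and 2.06. The more abundant ADAM17 row (ENSDARG00000043213) had a log2 fold change of -0.19. spock2 read 18.3 and 5.10 FPKM in kdrl:cxcr1 cells, compared with 5.78 and 0 FPKM in wild-type cells. Its groups overlapped, and the size of its change rests on the listed 0. RECK, a membrane-anchored MMP inhibitor named after its values were seen, read 80.2 and 69.9 FPKM in kdrl:cxcr1 cells, compared with 91.0 and 124 FPKM in wild-type cells, more than either TIMP2 row in each library.

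Substrates of the enzymes lay mostly above the median gene. Of 36 tested matrix genes, 24 lay above it and 12 below, with a list median of 0.29 and none past the test in either direction. COL2A1 (ENSDARG00000011407), COL4A1 and COL1A1 led by p, and all 3 were higher in both clutches. The second COL2A1 row (ENSDARG00000069093) overlapped between genotypes, with a log2 fold change of 0.53. It read 193 and 96.7 FPKM in kdrl:cxcr1 cells, compared with 180 and 49.7 FPKM in wild-type cells. COL4A2 had a log2 fold change of 0.13. COL4A1, the basement membrane collagen that gelatinases cut, read 49.7 and 56.9 FPKM in kdrl:cxcr1 cells, compared with 30.2 and 27.6 FPKM in wild-type cells (log2 fold change 0.86, SE 0.33, limma adjusted p = 0.699). Clutch 1 gave a list median of 0.015 and clutch 2 one of 0.39. The elastic fibre and collagen maturation list, which lysyl oxidases serve, had 13 of 28 above and 15 below the median gene, a median of -0.05 and none past the test. Its first genes by p were the microfibril genes mfap5 (log2 fold change -2.44) and MFAP4 (ENSDARG00000090783, 1.55), the second of which zebrafish macrophages also express, and the collagen hydroxylase PLOD1 (0.82). Another MFAP4 row (ENSDARG00000088745), the more abundant, overlapped between genotypes, with a log2 fold change of 0.32.

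Markers of other cell types also differed in level between libraries. The neutrophil and macrophage list summed to 1412 and 2292 FPKM in kdrl:cxcr1 cells, compared with 960 and 1198 FPKM in wild-type cells, with 16 of 20 tested genes above the median gene. Its median relative to that gene was -0.12 in clutch 1 and 0.91 in clutch 2. The neutrophil gene npsn, first by p, read 572 and 583 FPKM in kdrl:cxcr1 cells, compared with 132 and 292 FPKM in wild-type cells, and so made up most of the clutch 1 difference in the sum. MFAP4 (ENSDARG00000090783) and the complement gene c1qc came next, c1qc being listed at 0 in both kdrl:cxcr1 libraries. Of its 25 rows 4 and 6 were listed at 0 in kdrl:cxcr1, against 2 and 6 in wild-type, ptprc among them in every library, while lyz, named after its values were seen, read 310 FPKM or more in each. Neutrophils and macrophages are known to make MMP9. The list sum, in which lyz and npsn read highest, and MMP9 had different orders of libraries. The sum was lowest in wild-type clutch 1, where MMP9 was highest at 152 FPKM. It was highest in kdrl:cxcr1 clutch 2, where MMP9 read 67.5 FPKM. Single genes of the list differed. In wild-type clutch 1 lyz and npsn had their lowest value, while SPI1 (ENSDARG00000000767) and cybb, named after their values were seen, had their highest. The cartilage and notochord list summed to 622 and 456 FPKM in kdrl:cxcr1 cells, compared with 675 and 278 FPKM in wild-type cells. The order of libraries was that of the secreted MMP sum. For mmp13a the order was another, which the sums of the fibroblast and mesenchyme list and of the elastic fibre list shared. In the cartilage and notochord list COL2A1 (ENSDARG00000011407), MATN4 and hapln1a came first by p, at log2 fold changes of 1.18, 1.52 and -0.995. Of its 22 rows 1 and 3 were listed at 0 in kdrl:cxcr1, against 0 and 1 in wild-type. The part of these cells in the MMP values was not tested.

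Stromal markers gave mixed values beside ADAMTS15 and LOX. The fibroblast and mesenchyme list summed to 1274 and 1313 FPKM in kdrl:cxcr1 cells, compared with 1418 and 1084 FPKM in wild-type cells, with 7 of 16 tested genes above the median gene. Its leading genes by p went in both directions, twist1a and PRRX1 (ENSDARG00000042027) higher and mfap5 lower, at log2 fold changes of 2.41, 1.36 and -2.44, none past the test. The more abundant PRRX1 row (ENSDARG00000033971) overlapped between genotypes, with a log2 fold change of 0.36. twist1a read 20.5 and 34.4 FPKM in kdrl:cxcr1 cells, compared with 7.59 and 2.14 FPKM in wild-type cells. Its paralog twist1b, named after its values were seen, went the other way (log2 fold change -2.26). It read 12.7 and 0.188 FPKM in kdrl:cxcr1 cells, compared with 20.2 and 16.6 FPKM in wild-type cells. FBLN1 was listed at 0 in all 4 libraries and TCF21 in both clutch 2 libraries, while the tested row of OGN (ENSDARG00000044132) read 31.1 to 69.4 FPKM. The mural list summed to 409 and 426 FPKM in kdrl:cxcr1 cells, compared with 386 and 381 FPKM in wild-type cells, with PDGFRB, its defining receptor, listed at 0 throughout. Of its 14 tested genes 8 lay above the median gene. TAGLN (ENSDARG00000045408), MYLK and rgs5b came first by p, at log2 fold changes of 1.75, 0.87 and -0.52. The more abundant TAGLN row (ENSDARG00000033466) had a log2 fold change of 0.14. That row read 132 and 169 FPKM in kdrl:cxcr1 cells, compared with 120 and 154 FPKM in wild-type cells. The epidermal list summed to 1333 and 1134 FPKM in kdrl:cxcr1 cells, compared with 1524 and 1706 FPKM in wild-type cells. Of its 23 tested genes 21 lay below the median gene. The list median relative to that gene was -0.24 in clutch 1 and -1.81 in clutch 2, so the clutches differed in its size. The desmosome gene pkp3a and the keratin genes krt4 and krt5 came first by p, at log2 fold changes of -1.76, -1.77 and -1.24. All 3 were above 0 in all libraries, and 5 of 25 epidermal rows were listed at 0 in kdrl:cxcr1 clutch 2. The erythroid list summed to 6653 and 1544 FPKM in kdrl:cxcr1 cells, compared with 3118 and 1696 FPKM in wild-type cells. Nearly all of it was the haemoglobin gene hbae3, at 6370 and 1348 FPKM in kdrl:cxcr1 cells and 2999 and 1580 FPKM in wild-type cells. Of 14 tested erythroid genes 11 lay above the median gene, with a relative median of 1.07 (0.97 in clutch 1 and 0.78 in clutch 2), and cahz, tfr1a and hbae1.1 came first by p, at log2 fold changes of 1.22, 1.47 and 1.60. Of its 16 rows 2 and 2 were listed at 0 in kdrl:cxcr1, against 2 and 3 in wild-type. The endothelial list summed to 1342 and 1787 FPKM in kdrl:cxcr1 cells, compared with 1301 and 2139 FPKM in wild-type cells. Of its 24 tested genes 19 lay below the median gene, with a relative median of -0.15 (-0.02 in clutch 1 and -0.37 in clutch 2). Before the median gene was subtracted, the list median was 0.007. Its first genes by p were plvapb, lyve1a and lyve1b, at -0.58, -1.39 and -0.51, and none of its 25 rows was listed at 0. Next by p, and named after their values were seen, flt1, plvapa and FLT4 went the other way, at 0.53, 0.85 and 0.44. No gene of any list passed the test. The part of any of these in the ADAMTS15, LOX or mmp11b values was not tested.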

How the data were processed

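The deposited table holds FPKM values made by the authors from 4 libraries of sorted endothelial cells, 1 column per library. The submitters' processing notes name Cutadapt, TopHat2 2.0.11, Cufflinks 2.2.1 and the genome build GRCz10. The annotation, the strand setting and any scaling across libraries are not given in these labels. Low values showed no whole-read steps (at most 1.6% of low genes shared 1 ratio between 2 libraries), so depth is unknown. Per the labels' protocols, RNA went through the SMARTer Universal Low Input kit.

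A table of Ensembl identifiers gave symbols for 26120 of 31951 genes. Values were analysed as log2(FPKM + 1) with limma 3.58.1 in R 4.3.3, with an intensity trend, over 17723 genes with at least 1 FPKM in at least 2 libraries, two-sided, with Benjamini-Hochberg adjustment over all of them and a threshold of 0.05. Residual degrees of freedom were 2, to which limma's empirical Bayes prior added 3.69 (genotype) and 3.09 (clutch). On simulated data for the genotype comparison over 17723 genes, 35.8% of genes changed by a log2 value of 2 were recovered and 82.9% of those changed by 4. The simulated noise was normal, with the same spread for genes of equal mean level. Differences in spread between such genes were left out, so these shares do not give the power of the real fit.

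Samples are paired by clutch, since a kdrl:cxcr1 and a wild-type library share each clutch in the labels. Within a clutch, deviations from genotype means correlated at 0.116 over all genes. Blocking on the clutch was an alternative fit, with others in the closing section. The members, classes and gene lists were chosen with earlier results of these data known. Values are printed for the 3 highest members of each class, for members with an unadjusted p under 0.05 and for members with log2 ratios of at least 1 in both pairs, and up to 3 genes of each list are named by p. List entries ending in a or b were also matched to symbols in capitals without that ending, a choice made after the table was seen.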

Additional observations from a re-analysis of the deposited data

How the results depend on the processing

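No member passed the threshold for genotype or clutch under any setting tried: pseudocounts of 0.1 and 5, no filter, an FPKM minimum of 5, median-of-ratios scaling, no trend, the replicate block, and each library left out. Over all genes, the 2 calls by genotype became 0 with a pseudocount of 0.1, no filter, no trend or the replicate block, and 0 with any library left out. The 3 calls by clutch became 1 (pseudocount 0.1), 20 (no filter) and 1 (no trend), stayed at 3 under the replicate block, and ran from 0 to 15 with a library left out. Precision is limited by 2 libraries per group and unknown depth.

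A move in a class median by genotype was judged by the SD of its values in the 2 clutches, and by clutch that of the 2 genotypes. This SD is not a spread around the main median, which is taken over gene averages. For membrane MMPs the main genotype median, -0.27, lay outside both clutch values, -0.037 and -0.15. So did that of lysyl oxidases (-0.28 against -0.38 and -0.43) and of ADAMTS proteases (0.14 against 0.33 and 0.25). The SD was wide for secreted MMPs (-0.64 and -0.09 by clutch) and narrow for lysyl oxidases. Secreted MMPs thus stayed within it even at -0.12 with no filter, against -0.425 in the main fit. Class medians by genotype, relative to the median gene, moved by more than this SD as follows, where a small move counts if the clutches gave similar values. Membrane MMPs stood at -0.16 (pseudocount 5) and -0.054 (no filter). ADAMTS proteases stood at 0.078 (pseudocount 5), 0.27 (no filter) and 0.20 (FPKM of at least 5). TIMPs stood at 0.057 (no filter). Lysyl oxidases stood at -0.32 (pseudocount 0.1), -0.21 (pseudocount 5) and -0.041 (no filter), and all members at 0 (no filter). By clutch, membrane MMPs stood at 0.26 and all members at 0.023 (FPKM of at least 5). With a library left out, the genotype median ran from -0.46 to -0.033 for membrane MMPs, -0.90 to 0.069 for secreted MMPs, 0.040 to 0.18 for ADAMTS proteases, -0.21 to 0.84 for ADAMTS-like proteins and -0.49 to -0.13 for lysyl oxidases. The clutch median ran from -0.12 to 0.21 for membrane MMPs, -0.034 to 0.36 for lysyl oxidases and -0.18 to 0.026 for all members. The causes were not tested.

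Mean class sums under median-of-ratios scaling were 174 FPKM for membrane MMPs in wild-type, 80.2 and 72.0 FPKM for ADAMTS proteases in kdrl:cxcr1 and wild-type, 4.12 FPKM for ADAMTS-like proteins in wild-type and 82.1 FPKM for TIMPs in kdrl:cxcr1. Over tested members alone they were 83.8 FPKM for ADAMTS proteases in kdrl:cxcr1 and 1.52 FPKM for ADAMTS-like proteins in wild-type. Without ADAMTS15 (ENSDARG00000029124), the mean ADAMTS sum of kdrl:cxcr1 was 65.8 FPKM and that of wild-type 59.9 FPKM. Without MMP14 (ENSDARG00000008388) and MMP15 (ENSDARG00000051962), the mean membrane sum of kdrl:cxcr1 was 77.4 FPKM and that of wild-type 70.6 FPKM. With median-of-ratios scaling as well, the means were 60.7 and 65.0 FPKM for the ADAMTS remainder and 71.5 and 76.5 FPKM for the membrane remainder, in kdrl:cxcr1 and wild-type. Both omissions were chosen after seeing the data.

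Among single members, median-of-ratios scaling turned the genotype log2 fold change to -0.012 for mmp25b and -0.092 for TIMP2 (ENSDARG00000061226). With a library left out, the genotype value of 11 of the named members crossed 0, running from -0.00410 to 0.43 for mmp25b, -1.45 to 1.17 for mmp23bb, -1.36 to 0.69 for mmp25a, -0.34 to 1.09 for mmp13a, -0.92 to 0.54 for MMP9, -0.53 to 0.52 for MMP2, -0.43 to 0.965 for ADAMTS1, -0.066 to 1.06 for ADAMTSL3, -0.78 to 0.0087 for TIMP2 (ENSDARG00000075261), -0.14 to 0.059 for LOXL2 and -1.63 to 1.23 for loxl5a. The clutch value likewise ran from -0.10 to 0.79 for MMP14 (ENSDARG00000008388), -0.14 to 0.69 for MMP15 (ENSDARG00000051962), -1.52 to 0.81 for ADAMTS15 (ENSDARG00000029124), -0.28 to 0.34 for ADAMTS7, -0.087 to 1.08 for ADAMTS1, -0.059 to 0.080 and -0.735 to 0.15 for TIMP2 (ENSDARG00000061226 and ENSDARG00000075261), and -0.070 to 0.14 for LOXL2.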

Other observations

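Some members sit next to each other in the RefSeq gene order of zebrafish (assembly GRCz12tu, used here for order only). adamts1 and adamts5 are neighbours with 0 protein-coding genes between them. ADAMTS5 was higher in kdrl:cxcr1 in both clutches, with log2 ratios of 0.78 and 0.80, while ADAMTS1 had ratios of -0.64 and 1.17. The neighbours mmp20a and mmp20b, of the enamel-forming enamelysin type, were at 0 in all libraries but 1, wild-type clutch 2, where mmp20b was listed at 3.50 FPKM. adamts13, which cuts von Willebrand factor, was listed at 0 in 3 libraries and at 0.0988 FPKM in kdrl:cxcr1 clutch 1. MMP16, a membrane MMP known from brain, stayed under 1 FPKM in every library, between 0.0116 and 0.713 FPKM.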
